A study of Mus musculus with 6 samples.

Results

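Dppa2, Dppa3, Dppa4 and Dppa5a are mouse genes named developmental pluripotency associated because their transcripts are found in pluripotent cells, early embryos and germ cells. They are not all relatives of each other. Dppa2 and Dppa4 encode chromatin proteins with a SAP domain that bind DNA as partners, help to switch on the transcription factor Dux and the genes of the 2-cell embryo, and keep many developmental promoters free of DNA methylation. Dppa3, also called Stella or PGC7, encodes a small basic protein that guards the maternal genome against demethylation in the zygote and binds Uhrf1, the protein that recruits the maintenance methyltransferase Dnmt1. Dppa5a, also called Esg1, encodes an RNA-binding protein of the KH-domain family that is abundant in undifferentiated cells.

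The genes were taken by symbol from a table of raw RNA-seq counts and make up 4 of its 27179 genes. All 4 were among the 12345 genes that passed a filter on low counts and were tested. The cells were mouse embryonic stem cells (mESCs) that carry Tfe3-ERT2. In this fusion a hormone-binding domain keeps the transcription factor Tfe3 out of the nucleus until 4-hydroxytamoxifen (4OHT) binds it. The treated cells received 1 µg/mL 4OHT for 48 h (3 libraries), and the controls received the vehicle ethanol, EtOH (3 libraries). Both groups carried the fusion and grew on gelatin with 10% fetal bovine serum and 1000 U/mL of the cytokine LIF, so an effect of the drug and an effect of the fusion in the nucleus cannot be told apart. Whether the line is 1 clone, and whether libraries of the same treatment were grown apart, is not stated in the labels. The p-values therefore measure only the spread between these libraries, which may be technical.

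Library totals were between 4648374 and 6427880 counts in 4OHT and between 4092877 and 4984364 counts in EtOH. Levels are given as CPM, counts divided by a TMM-scaled library size and multiplied by 1e+06. The detection floor, 3 counts, lay between 0.469 and 0.651 CPM in 4OHT and between 0.604 and 0.738 CPM in EtOH and covers counting error only. All 7 markers of mESCs that were listed, Pou5f1, Sox2, Nanog, Zfp42, Esrrb, Fgf4 and Utf1, were detected. Their summed level was between 3236 and 3241 CPM in 4OHT and between 3057 and 3107 CPM in EtOH. The sum covers changes in both directions. Of the 7, 3 were called higher (Nanog, Zfp42 and Esrrb) and 3 lower (Pou5f1, Fgf4 and Utf1), and Sox2 was not called. Among all tested genes 21.4% were called higher and 20.6% lower. Esrrb had 882 CPM in 4OHT and 566 CPM in EtOH, and Pou5f1 had 697 CPM in 4OHT and 791 CPM in EtOH. The 8 fibroblast markers summed to between 19.3 and 25.5 CPM in 4OHT and between 15.5 and 23.9 CPM in EtOH, and Lum was at 0 in every library. Col1a1, Col1a2 and Thy1 were tested and not called, and Col3a1, Pdgfrb, Dcn and Twist2 were too low to be tested. Col1a2, with at most 25 counts in a library, had a log2 fold change of 0.67 (SE 0.33, edgeR adjusted p = 0.0958). It was called higher without EtOH replicate 2 (edgeR adjusted p = 0.0312).

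Reads of these genes can also match copies elsewhere in the genome, so the sequences that decide how far the counts belong to each gene are given first. The coding sequence of Dppa3 on chromosome 6 has 453 bases, and Dppa3-ps, a processed pseudogene (a copy made from the spliced transcript) on chromosome X at 37625380 to 37626197 (GRCm38), repeats its bases 3 to 453 with 8 differences, an identity of 98.2%. Dppa5a has 357 coding bases, and 2 pseudogenes on the same chromosome 9, Dppa5b (78245487 to 78246600) and Dppa5c (78271935 to 78273046), have transcripts identical to each other in the 348 annotated bases. Shown are 180 bases of Dppa3 from its coding base 3 beside the copy, with 5 differences, and the first 120 coding bases of Dppa5a beside Dppa5b, also with 5 differences. Capitals mark the bases that differ within a pair, and all sequences are GENCODE vM21 transcripts read 5′ to 3′.
Dppa3: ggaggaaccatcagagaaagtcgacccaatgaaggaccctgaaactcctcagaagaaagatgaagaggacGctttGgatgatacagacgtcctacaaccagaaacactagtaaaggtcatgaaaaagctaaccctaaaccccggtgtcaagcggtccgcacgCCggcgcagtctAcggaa
Dppa3-ps: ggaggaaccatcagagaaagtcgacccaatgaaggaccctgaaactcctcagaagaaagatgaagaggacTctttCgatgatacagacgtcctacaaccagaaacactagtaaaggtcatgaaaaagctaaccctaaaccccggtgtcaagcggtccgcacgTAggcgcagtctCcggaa
Dppa5a: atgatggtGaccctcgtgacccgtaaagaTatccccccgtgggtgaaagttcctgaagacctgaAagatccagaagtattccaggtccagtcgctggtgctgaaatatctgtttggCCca
Dppa5b: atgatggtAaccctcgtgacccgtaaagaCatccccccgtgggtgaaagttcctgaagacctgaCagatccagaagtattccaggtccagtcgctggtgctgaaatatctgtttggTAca

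Dppa3 shared the smallest part of its transcript with other genes at each of 3 lengths tried. Of all stretches of 50 bases in it, 17.7% also occurred in a transcript of another GENCODE gene, against 38.6% for Dppa5a, 36.7% for Dppa2 and 35.9% for Dppa4. Of all stretches of 75 bases, 4.08% did so for Dppa3, and at 100 bases none did. For Dppa5a the shares were 19.4% at 75 bases and 3.08% at 100 bases, for Dppa4 23.7% and 16.8%, and for Dppa2 32.6% and 30.3%. Neither the read length nor the handling of multiply matching reads is stated in the labels, so the levels of all 4 carry this uncertainty, Dppa3 least. Pigp, which shares a stretch with Dppa5a, had 16.8 CPM in both groups (edgeR adjusted p = 0.953), and the other copies were not analysed here. On neither strand does any exon base of the 4 genes fall within an exon of a different GENCODE vM21 gene.

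Dppa3 fell in 4OHT and was the only one of the 4 genes to pass the test. Its counts were 120, 163 and 152 in the 4OHT libraries and 292, 245 and 232 in the EtOH libraries. As CPM these were 26.0, 29.4 and 23.7 in 4OHT, against 58.8, 55.4 and 57.1 in EtOH. Every 4OHT library was far below every EtOH library. The means were 26.4 ± 2.84 CPM in 4OHT and 57.1 ± 1.71 CPM in EtOH (SD, n = 3 each), a log2 fold change of -1.12 (SE 0.09, 95% interval -1.30 to -0.93, edgeR quasi-likelihood adjusted p = 1.66e-24). This is 2.17-fold lower, with an interval from 1.91-fold to 2.47-fold lower. Only 133 of the 12345 tested genes had a more negative log2 fold change. In a bulk measurement like this one, fewer cells with the transcript and less transcript per cell cannot be told apart. The gene (Entrez Gene 73708) lies on chromosome 6 at 122626424 to 122630271 (RefSeq on GRCm38).

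Dppa2 was slightly higher in 4OHT without passing the test. The 4OHT libraries had 315, 381 and 407 counts, or 68.4, 68.7 and 63.6 CPM, and the EtOH libraries had 321, 266 and 220 counts, or 64.6, 60.1 and 54.1 CPM. The groups overlapped only in that the highest EtOH library was above the lowest 4OHT library. Means were 66.9 ± 2.87 CPM in 4OHT and 59.6 ± 5.28 CPM in EtOH (SD, n = 3 each), a log2 fold change of 0.15 (SE 0.08, 95% interval 0.01 to 0.30, edgeR adjusted p = 0.0898). That single-gene interval, which is not corrected for the number of genes tested, ends at 1.23-fold higher. Without EtOH replicate 1 the log2 fold change was 0.22 and passed the threshold (edgeR adjusted p = 0.0382), and without EtOH replicate 3 it was 0.09 (edgeR adjusted p = 0.403). Dppa2 (Entrez Gene 73703) lies on chromosome 16 at 48310274 to 48319513.

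Dppa4 lies 16.0 kb from Dppa2 on chromosome 16 (Entrez Gene 73693, 48283735 to 48294292) and did not pass the test either. Its counts were 546, 646 and 803 in 4OHT, or 118.5, 116.5 and 125 CPM, and 657, 521 and 519 in EtOH, or 132, 118 and 128 CPM. The values of the groups were interleaved. The means were 120.1 ± 4.68 CPM in 4OHT and 126 ± 7.43 CPM in EtOH (SD, n = 3 each), with a log2 fold change of -0.07 (SE 0.06, 95% interval -0.18 to 0.04, edgeR adjusted p = 0.348). The interval ends at 1.13-fold lower and 1.03-fold higher.

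Dppa5a was by far the most abundant and the most tightly bounded of the 4. Its counts were 4541, 5576 and 6326 in 4OHT, or 986, 1006 and 988 CPM, and 4696, 4249 and 4183 in EtOH, or 946, 961 and 1029 CPM. The 3 4OHT libraries lay inside the range of the EtOH libraries. Means were 993 ± 10.9 CPM in 4OHT and 978 ± 44.5 CPM in EtOH (SD, n = 3 each), with a log2 fold change of 0.02 (SE 0.03, 95% interval -0.04 to 0.08, edgeR adjusted p = 0.616). Within that interval the level could be at most 1.03-fold lower or 1.06-fold higher. The sign turned with the scaling, to -0.01 with upper quartile factors. The gene (Entrez Gene 434423) lies on chromosome 9 at 78367052 to 78368199.

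**Figure D1:**
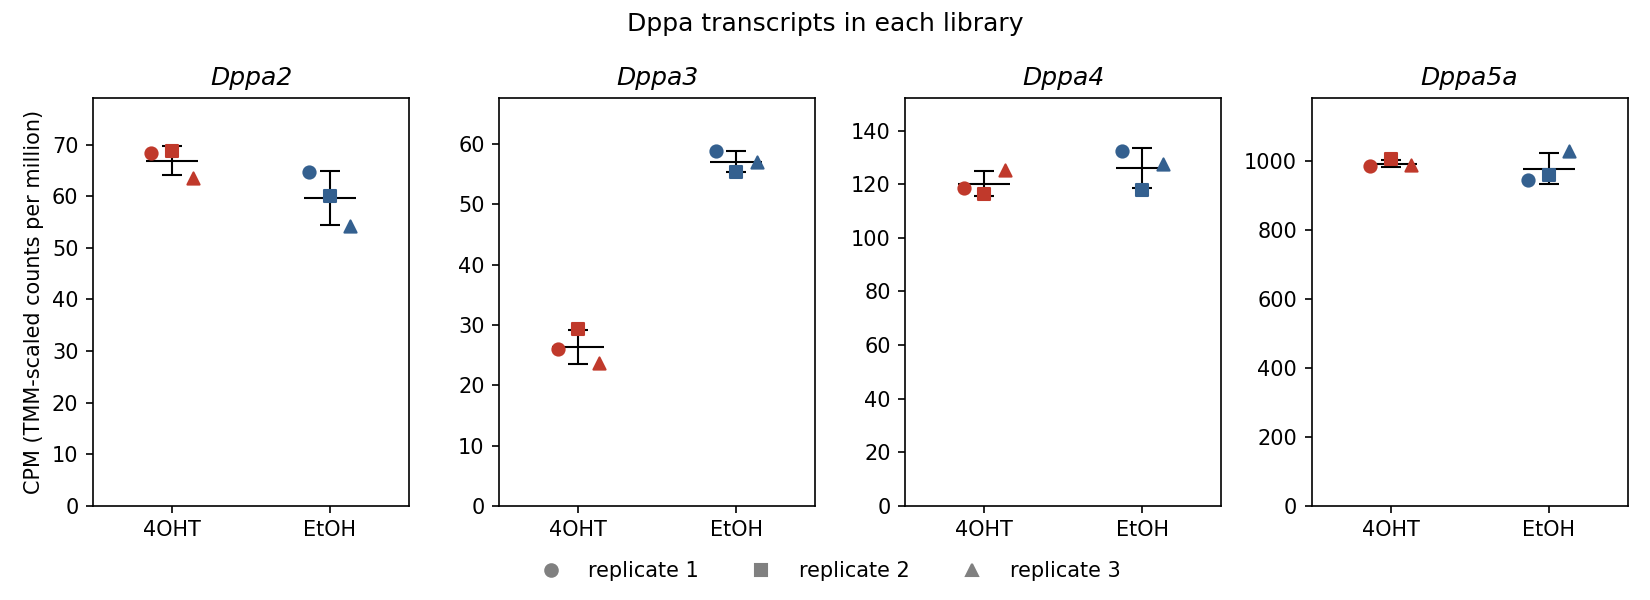
Level of each Dppa gene in CPM (vertical axes, each from 0 and on its own scale) in the 3 4OHT and 3 EtOH libraries. Symbols are single libraries, horizontal bars the group mean and whiskers the SD, and only for Dppa3 are the groups apart, with 23.7 to 29.4 CPM in 4OHT and 55.4 to 58.8 CPM in EtOH.

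So 1 of 4 members was called, against 42.0% of all tested genes called in either direction and 20.6% called lower. The groups did not overlap in 1 of 4 members, against 48.8% of all tested genes. DESeq2 also called Dppa3 alone, against 29.9% of all tested genes. With so large a background, a single call among 4 genes is no sign that Dppa genes respond more often than others. The size of the Dppa3 change is less common, since 1.51% of tested genes were called and at least 2-fold lower. The median log2 fold change over all tested genes was -0.0024, and the median absolute value was 0.21.

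**Figure D2:**
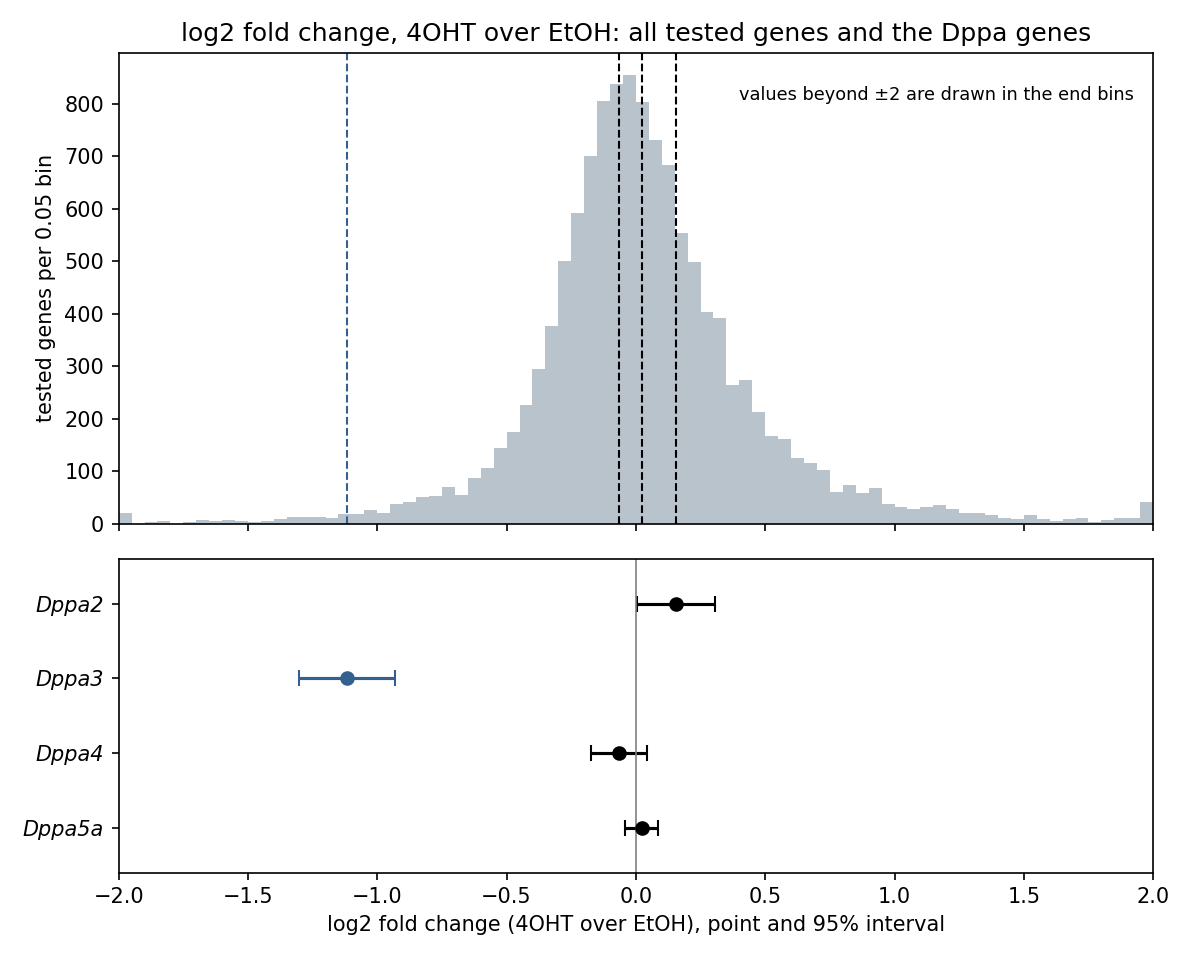
Upper panel, number of tested genes (vertical axis) by log2 fold change of 4OHT over EtOH in bins of 0.05, with dashed lines at the 4 Dppa genes. Lower panel, each Dppa gene's log2 fold change with its 95% interval; Dppa3 at -1.12 lies in the left tail and the other three lie near the peak.

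Levels between genes were compared per kilobase of the deposited gene length, as CPM per kilobase (RPKM). Dppa5a had 1549 ± 17.0 RPKM in 4OHT and 1526 ± 69.4 RPKM in EtOH, rank 15 and rank 17 among the tested genes. Dppa4 had 78.3 ± 3.05 RPKM in 4OHT and 82.1 ± 4.84 RPKM in EtOH. Dppa3 had 32.3 ± 3.48 RPKM in 4OHT and 69.8 ± 2.09 RPKM in EtOH, and Dppa2 had 34.5 ± 1.48 RPKM in 4OHT and 30.7 ± 2.72 RPKM in EtOH (SD, n = 3 each). In 4OHT the order was Dppa5a, Dppa4 and then Dppa3 and Dppa2, whose levels overlapped (29.0 to 35.9 RPKM and 32.8 to 35.4 RPKM). In EtOH the order was Dppa5a, Dppa4, Dppa3, Dppa2, and the libraries of neighbouring genes did not overlap. Mean Dppa3 stood at 0.936 times mean Dppa2 in 4OHT and 2.27 times in EtOH.

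Because all 4 genes are counted in each library, their proportions do not depend on the scaling. Dppa3 made up 2.17%, 2.41% and 1.98% of the summed counts of the 4 genes in the 4OHT libraries and 4.89%, 4.64% and 4.50% in the EtOH libraries. The mean share was 2.19% in 4OHT and 4.68% in EtOH, a difference of -2.49 percentage points (exact permutation test, two-sided, p = 0.1, the smallest that 3 against 3 libraries allow). Dppa2 and Dppa4 encode partners, and the log2 ratio of their counts was -0.79, -0.76 and -0.98 in 4OHT and -1.03, -0.97 and -1.24 in EtOH. The groups overlapped by a single library on each side, and the difference in means of 0.24 was not distinguished from the spread (exact permutation test, two-sided, p = 0.2).

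The DNA methylation machinery with which Dppa3 is known to interact moved in both directions. Of 8 tested genes, 3 were lower and 2 higher in 4OHT (median log2 fold change -0.0019, against -0.0024 over all tested genes), with 20.6% lower and 21.4% higher among all tested genes. Uhrf1, whose protein is bound by Dppa3, rose slightly, with 553 ± 2.61 CPM in 4OHT and 496 ± 3.23 CPM in EtOH (log2 fold change 0.16, edgeR adjusted p = 8.95e-05). The maintenance methyltransferase gene Dnmt1 had 416 ± 16.2 CPM in 4OHT and 421 ± 19.7 CPM in EtOH and did not pass (edgeR adjusted p = 0.794), with a log2 fold change of -0.01. The de novo methyltransferase genes Dnmt3a and Dnmt3b were 3.29-fold and 1.98-fold lower in 4OHT, and their cofactor gene Dnmt3l was 1.16-fold lower. Among the TET genes, whose enzymes oxidise methylated cytosine, Tet2 rose 1.33-fold (167 ± 4.29 CPM in 4OHT, 125 ± 8.62 CPM in EtOH), while Tet1 (log2 fold change 0.04) and Tet3 (0.01) were not called.

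The 2-cell genes that Dppa2 and Dppa4 are known to help switch on were hardly counted in either group. Of 22 genes listed, 21 were matched, 16 of them had no count in any library, and none was high enough to test. Duxf3, the gene of Dux, and Zfp352 were at 0 throughout, as were Zscan4a, Zscan4b, Zscan4c, Zscan4d and Zscan4f. The list summed to between 0 and 3 counts in a 4OHT library and between 1 and 3 counts in an EtOH library. Many of these genes have near-identical copies, and reads that match several of them may have been left out of the counting, so a low level is not shown to be absence. Genes known to hold the 2-cell programme down were tested as well. Of 12, 7 were lower and 1 higher, against 20.6% lower and 21.4% higher among all tested genes (median log2 fold change -0.20, against -0.0024). The SEs of the 12 were small, from 0.03 to 0.08, so that slight changes could be called. The 7 lower genes fell by 1.14-fold to 1.36-fold, and the median absolute log2 fold change over all tested genes was 0.21. Ncl, which encodes nucleolin, was 1.25-fold lower (3827 ± 85.0 CPM in 4OHT, 4796 ± 137 CPM in EtOH), Trim28, a corepressor of transposons, 1.17-fold lower and the polycomb gene Pcgf6 1.36-fold lower. The higher member was Ehmt2, a histone H3 methyltransferase gene, at 1.26-fold. Pias4, whose product attaches SUMO to Dppa2, had a log2 fold change of 0.10 and did not pass (edgeR adjusted p = 0.364).

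Genes of the germ line, many of whose promoters are silenced by DNA methylation in other cells, were tested in 8 of 14 cases. The 14 include the heart gene Nkx2-5, which was not among the 8 tested. Of these 8, 1 was called, against 42.0% of all tested genes, and Ddx4, a germ cell RNA helicase gene, was the 1 that was lower (31.2 ± 2.61 CPM in 4OHT, 39.9 ± 1.18 CPM in EtOH, edgeR adjusted p = 0.00151). Syce1, Dazl, Mael, Sycp1, Sycp3 and Hormad1 had at most 73 counts in a library, with SEs from 0.19 to 0.24. Modest changes in these genes could therefore go uncalled, and the low share called is not shown to be a weaker response. Syce1, a meiotic gene reported to depend on Dppa2 and Dppa4 in mESCs, had 9.05 CPM in both groups (log2 fold change -0.01, edgeR adjusted p = 0.982), and Nkx2-5, a heart gene reported likewise, had at most 2 counts in a library (means of 0.205 CPM in 4OHT and 0.292 CPM in EtOH). Dppa3 is also a marker of primordial germ cells. Of 8 tested markers of these cells, 4 were lower and 2 higher, against 20.6% lower and 21.4% higher among all tested genes. The lower ones were Kit (1.80-fold), Ifitm3 (1.42-fold), Ddx4 (1.28-fold) and Dnd1 (1.46-fold), and the higher ones Prdm1 (1.36-fold) and Tfap2c (1.16-fold). Nanos3 was too low to be tested, and Dazl and Prdm14 were not called. DESeq2 did not call Dnd1 (adjusted p = 0.0625) or Tfap2c (adjusted p = 0.0681). The call of Prdm1 was lost without EtOH replicate 1 (edgeR adjusted p = 0.0502), where Tfap2c was lost too (0.0622), and that of Dnd1 without 4OHT replicate 3 (0.0535).

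Dppa5a belongs to a cluster of KH-domain genes on chromosome 9 that are known from the oocyte. Its neighbour Ooep had 82.6 ± 1.05 CPM in 4OHT and 79.9 ± 1.71 CPM in EtOH and was not called (edgeR adjusted p = 0.586). Khdc3, another member of that family, rose 2.33-fold, with 41.1 ± 2.11 CPM in 4OHT and 17.4 ± 1.71 CPM in EtOH (edgeR adjusted p = 7.71e-21). Tle6, whose product joins the same oocyte complex, rose from a low level (9.07 ± 2.11 CPM in 4OHT, 4.77 ± 1.25 CPM in EtOH). Of the other genes of this list of 8, Khdc1a, Khdc1b, Khdc1c, Nlrp5 and Padi6 were too low to be tested.

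The fall of Dppa3 ran against the direction of most naive pluripotency factors, the regulators of the preimplantation-like state for which Dppa3 is itself often used as a marker. Of 12 such factors 10 were higher in 4OHT and 1 lower, against 21.4% higher and 20.6% lower among all tested genes (median log2 fold change 0.29, against -0.0024). Tbx3, which has been reported to control Dppa3, was 3.44-fold higher (229 ± 9.17 CPM in 4OHT, 66.7 ± 2.30 CPM in EtOH), Tfcp2l1 2.26-fold, Esrrb 1.56-fold and Klf2 1.46-fold higher. Nanog, Zfp42, Tfap2c and Nr0b1 rose by only 1.10-fold to 1.18-fold. Tfap2c was not called by DESeq2 (adjusted p = 0.0681) or without EtOH replicate 1 (edgeR adjusted p = 0.0622). Nr5a2 was the lower factor (1.54-fold), and Prdm14 was not called. The same holds for genes that, like Dppa3, are known to vary from cell to cell in serum and LIF. Of 9 tested, 8 were higher and none lower, against 21.4% higher and 20.6% lower among all tested genes. The median log2 fold change of the 9 was 0.48, against -0.0024. Tcl1 was 2.27-fold and Pecam1 1.44-fold higher, and 7 of these 9 are also among the 12 naive factors. A list of 14 transcripts associated with embryonic stem cells was mixed, with 4 higher and 6 lower, against the same shares of all tested genes. Its median log2 fold change was -0.10, against -0.0024. This list shares 5 genes with the mESC markers and 2 with the naive factors. Within it Khdc3 was 2.33-fold higher, while Tdgf1, a coreceptor of Nodal, was 1.28-fold lower, Utf1 1.29-fold lower and Lin28a 1.25-fold lower.

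Markers of formative, epiblast-like cells were lower in 4OHT like Dppa3, and their part in the result was not tested. Of 7 listed 6 were tested and called lower, against 20.6% called lower among all tested genes, and Fgf5 was too low to be tested. The list summed to between 448 and 454 CPM in 4OHT and between 987 and 1007 CPM in EtOH, most of it from Dnmt3a and Dnmt3b, which also stand in the DNA methylation list. Pou3f1 was 2.15-fold and Sall2 2.29-fold lower. Lef1 was 10.4-fold lower (2.01 ± 0.48 CPM in 4OHT, 21.0 ± 1.39 CPM in EtOH), but it passed the filter on low counts only through the EtOH libraries, so its call is no support for the list. Otx2 was 1.29-fold lower, but its call was lost without EtOH replicate 3 (edgeR adjusted p = 0.133), 4OHT replicate 1 (0.0817) or 4OHT replicate 2 (0.0601), and under DESeq2 (0.0731).

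Markers of trophectoderm, the blastocyst layer that gives rise to the placenta, were higher where tested, and their part in the result was not tested either. The 5 that were tested, Hand1 among them, were all called higher, against 21.4% called higher among all tested genes. The 8 genes summed to between 883 and 903 CPM in 4OHT and between 380 and 406 CPM in EtOH, and nearly all of this was keratin. Krt8 had 489 ± 2.86 CPM in 4OHT and 219 ± 8.23 CPM in EtOH, and Krt18 had 371 ± 5.87 CPM in 4OHT and 161 ± 7.39 CPM in EtOH. The transcription factor genes Eomes (13.1 ± 1.98 CPM in 4OHT, 4.97 ± 0.268 CPM in EtOH) and Gata3 (2.24-fold) were also called higher. Hand1 was called higher too, at 8.96 CPM in 4OHT and 1.54 CPM in EtOH. But it passed the filter only through the 4OHT libraries, so its call is no support for the list. Cdx2, Elf5 and Tfap2a were too low to be tested, and Elf5 had 1 count in all. The 8 primitive endoderm markers summed to between 23.4 and 28.1 CPM in 4OHT and between 15.01 and 23.2 CPM in EtOH. Gata4, Sox7 and Dab2 were tested and not called, and Gata6, Sox17, Pdgfra, Foxa2 and Hnf4a were too low to be tested. Sox7, with at most 27 counts in a library, had a log2 fold change of 0.71 (SE 0.34, edgeR adjusted p = 0.0813). It was called higher without 4OHT replicate 1 (edgeR adjusted p = 0.0428).

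**Figure D3:**
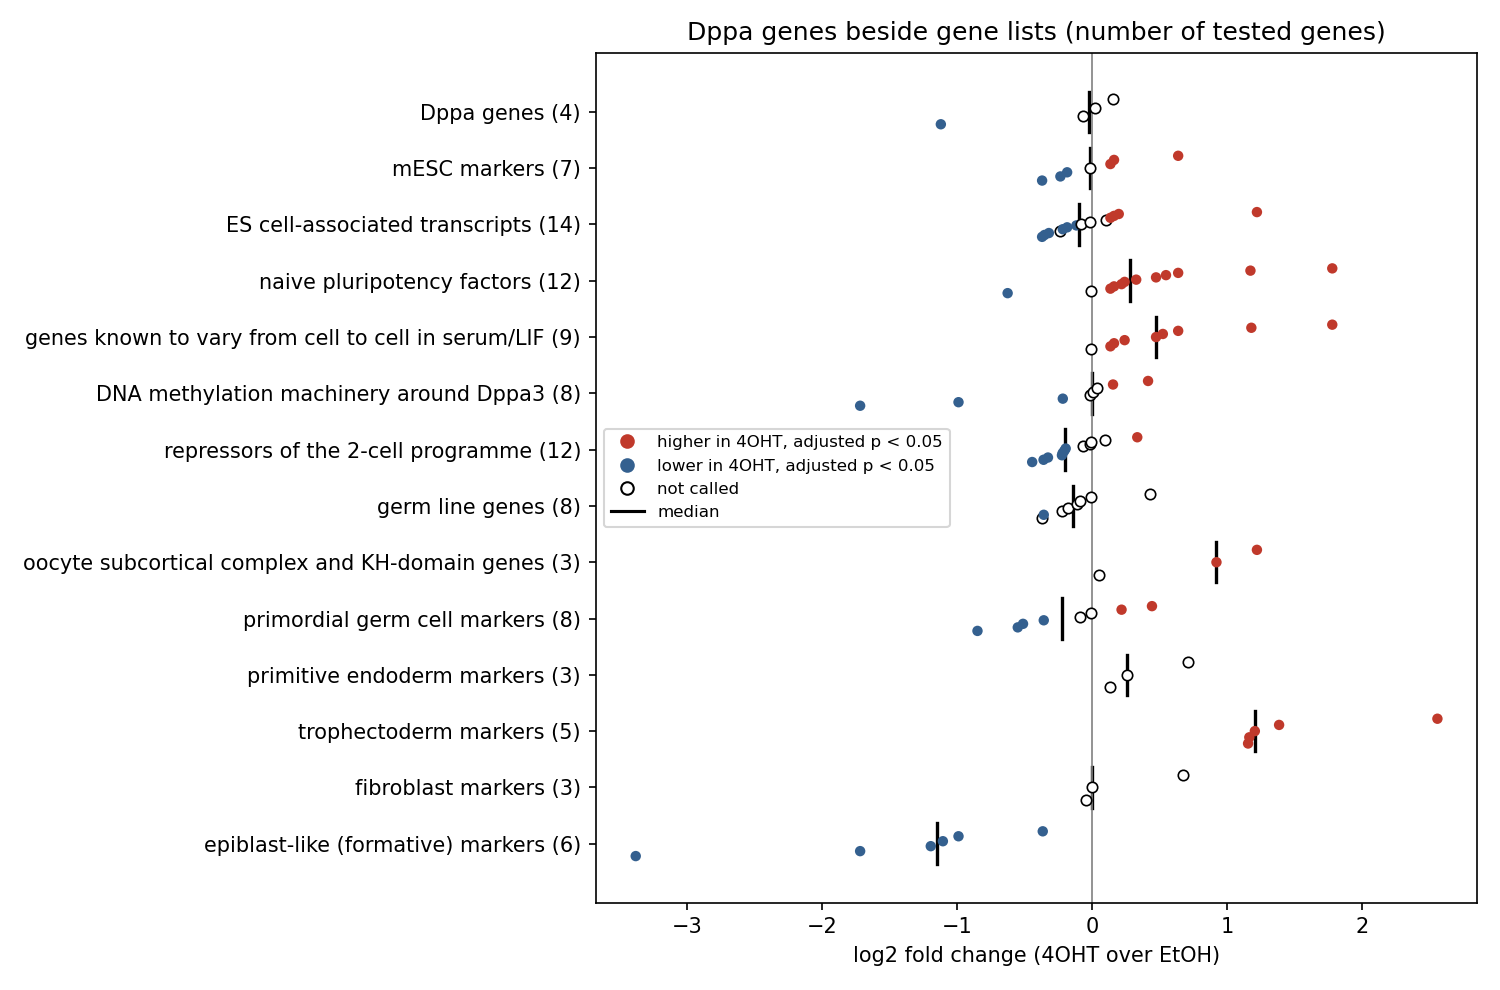
Log2 fold change of 4OHT over EtOH (horizontal axis) for every tested gene of each list, with the number of tested genes in brackets. Filled points are called in red (higher in 4OHT) or blue (lower), open points are not called and black bars are medians. Dppa3 lies at -1.12, to the left of every naive pluripotency factor.

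No tested neighbour of Dppa3 on the chromosome was called lower. Dppa3 lies in a cluster of genes expressed in pluripotent cells between Gdf3, a ligand of the TGF-beta family, and Nanog. Gdf3, 16.3 kb away, had 93.9 ± 9.54 CPM in 4OHT and 98.5 ± 4.01 CPM in EtOH and was not called (edgeR adjusted p = 0.317). Apobec1, an RNA-editing enzyme gene beyond it, had a log2 fold change of -0.22 and was not called (edgeR adjusted p = 0.297). On the other side Nanog was 1.10-fold higher (283 ± 6.63 CPM in 4OHT, 258 ± 5.21 CPM in EtOH), and the glucose transporter gene Slc2a3 was 1.67-fold higher (2675 ± 56.9 CPM in 4OHT, 1603 ± 58.1 CPM in EtOH). Gm10224 was too low to be tested. Beyond Dppa2 on chromosome 16, Morc1, a germ cell gene, was 1.38-fold higher (78.4 ± 3.89 CPM in 4OHT, 56.5 ± 5.54 CPM in EtOH, edgeR adjusted p = 1.99e-08), and on the far side of Dppa4, 1785 kb off, Nectin3 was 1.20-fold lower, a call lost without EtOH replicate 2 (edgeR adjusted p = 0.0529). Gm7275, Gm5485 and Trat1 had no count, and Cd96 had at most 2. Near Dppa5a, Ddx43, an RNA helicase gene, was 1.81-fold lower (10.3 ± 1.03 CPM in 4OHT, 18.8 ± 1.80 CPM in EtOH), Cgas was not called and Omt2a, Omt2b and Gsta2 had no count. Of 9 tested neighbours, 3 were higher, 2 lower and 4 not called, against 42.0% of all tested genes called.

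**Figure D4:**
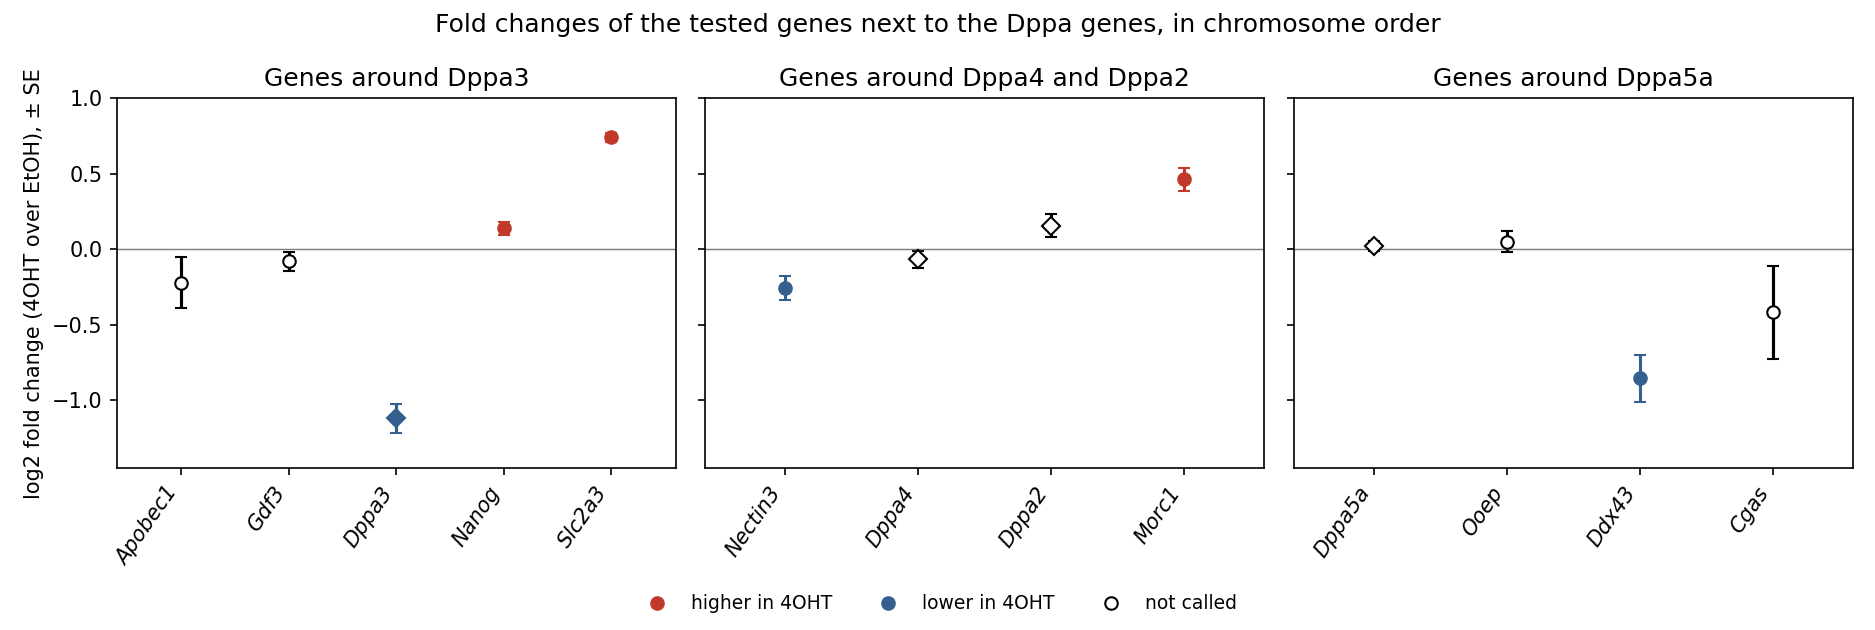
Log2 fold change of 4OHT over EtOH with its SE (vertical axis) for each Dppa gene (diamonds) and the tested genes among those nearest to it (circles), in chromosome order and not to scale. Red is higher in 4OHT, blue lower and open not called. Dppa3 at -1.12 stands below Gdf3 at -0.08 and Nanog at 0.14.

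The genes whose profile over the 6 libraries was closest to each Dppa gene were ranked by the root mean square difference of centred log2 CPM among 11399 other genes. For Dppa3 these were the kinase gene Stk26 (difference 0.06), with 9.81 CPM in 4OHT and 20.5 CPM in EtOH, Tmem63a (0.07) and the kidney slit diaphragm gene Nphs1 (0.08), with 44.7 CPM in 4OHT and 96.1 CPM in EtOH. All 3 were called lower. For Dppa2 they were Cope, E4f1 and Synj2, for Dppa4 Dusp12, Zfp329 and the mitochondrial gene ND5, and for Dppa5a Rnf2, Srpr and Csrp2, and none of these 9 was called. No Dppa gene was among the closest of another. The nearest pair was Dppa4 and Dppa5a at 0.08, and Dppa2 and Dppa4 differed by 0.16. The 6 libraries fall into the 2 groups, so for Dppa3 such a ranking mostly reflects the size of the group difference. For the other Dppa genes, whose group differences were small, it also reflects the spread between libraries of a group.

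Another gene with a Dppa name in the table, Dppa1, had 1 count in each of 4OHT replicates 1 and 2 and none in the other libraries, and was not tested.

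The fall of Dppa3 did not rest on a single library or setting. Over 15 alternatives its log2 fold change lay between -1.21 and -1.03, and it was called in each. Dppa4 and Dppa5a were called in none, with ranges from -0.11 to -0.03 and from -0.01 to 0.06.

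**Figure D5:**
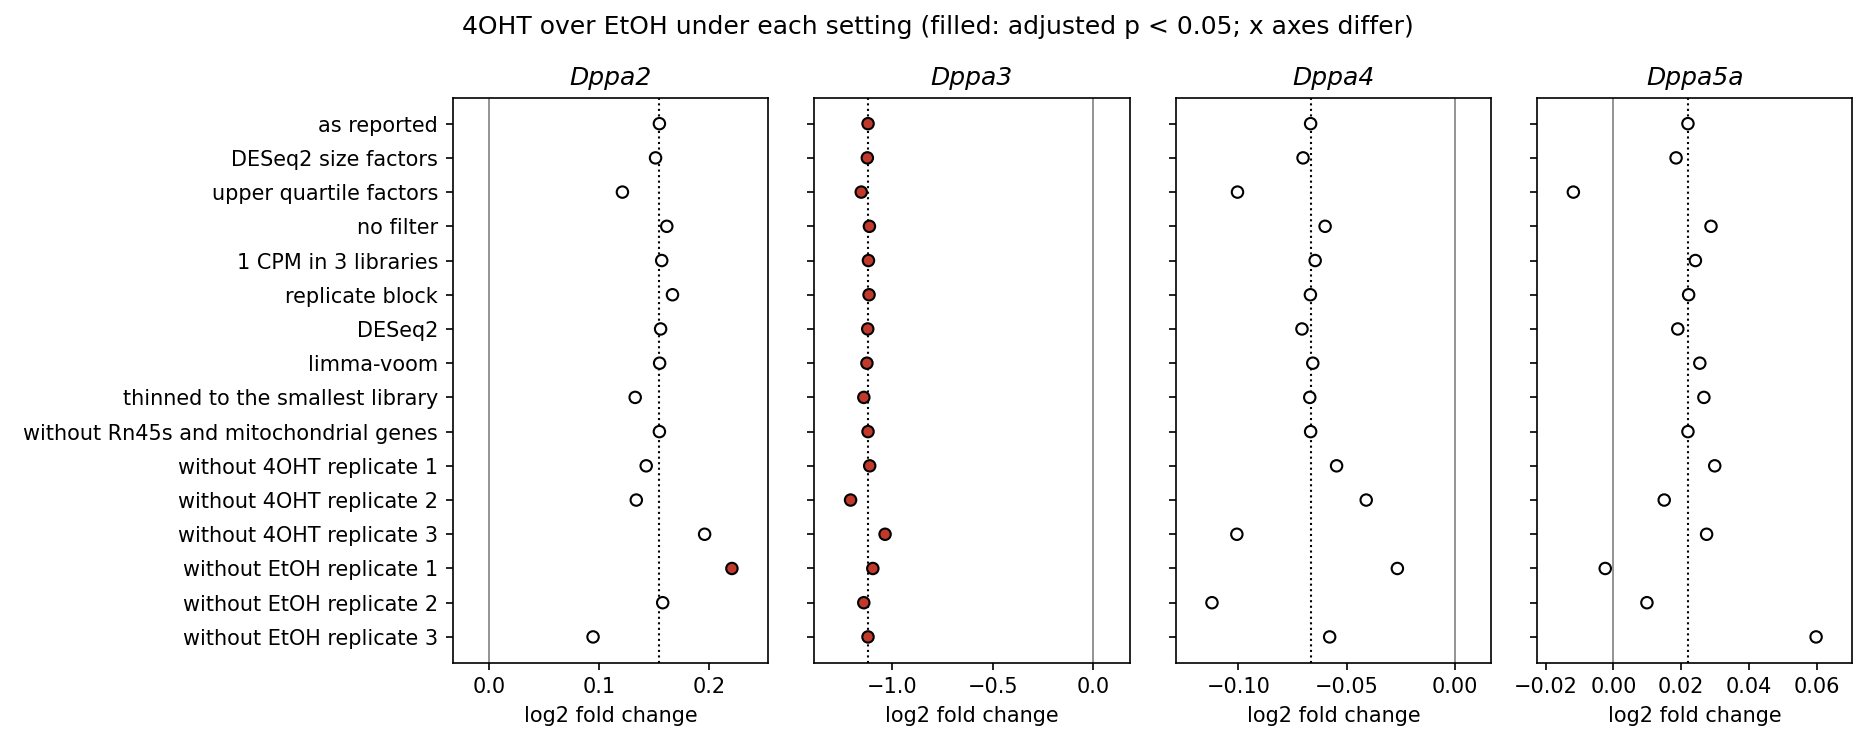
Log2 fold change of 4OHT over EtOH (horizontal axes, different for each gene) for the 4 Dppa genes as reported and under each of 15 other settings (rows). Filled points have an adjusted p under 0.05 and dotted lines mark the reported value. Dppa3 is filled throughout, and Dppa2 only without EtOH replicate 1, at 0.22.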

How the data were processed

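RNA was sequenced from 6 mESC libraries, 3 given 4OHT and 3 EtOH, prepared with a kit that keeps strand, per the labels' protocols. The authors deposited unnormalised read counts for each gene and library, and a gene length in bases. The submitters' processing notes name fastp, STAR, featureCounts and mm10, without roles. Their versions, the annotation, the strand setting and the handling of reads matching several places are not stated there or in the labels. Of 27179 rows 1314 had no symbol (0.411% to 0.478% of a library's counts) and stayed in the fit, named by RefSeq where possible. Genes were kept by filterByExpr (minimum count 10, total 15), scaled with TMM and tested with edgeR 4.0.16 (robust quasi-likelihood, group only) under R 4.3.3. Adjusted p-values (Benjamini-Hochberg, all 12345 tested genes) under 0.05 were called. Fold changes are 4OHT over EtOH, each SE divides the size of the log2 fold change by the square root of F, and intervals are 95%. The common dispersion was 0.00129. RPKM divides CPM by the deposited length.

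The members and the 14 gene lists were chosen with earlier results of these data known. Lists are described by counts and medians, with no set test. Named were the 4 members, any other Dppa symbol, per list the 4 called genes of lowest p at most, all genes of lists of up to 8, 3 neighbours on each side, and the 3 closest profiles among genes averaging 2 or more log2 CPM (prior count 2). Other genes are named after their values were seen. A single untested gene under this rule is not reported here. Tools included DESeq2 1.42.0, limma 3.58.1, Python 3.11.15, pandas 2.3.3, scipy 1.17.1 and matplotlib 3.10.9. Steps were tested on simulated data. No library pair of a group agreed within counting error.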

Additional observations from a re-analysis of the deposited data

How the results depend on the processing

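The alternatives were size factors from DESeq2 or upper quartiles, no filter or one at 1 CPM (3 libraries), a replicate block, the tools DESeq2 and limma-voom, thinning to the smallest library, omission of Rn45s and mitochondrial genes, omission of each library, and a threshold of 0.01. Dppa3 kept its direction and its call under all of those run on it, with adjusted p between 5.44e-30 and 1.85e-17. Dppa2 ranged from 0.0944 to 0.2206 on the log2 scale with a library left out, and was called without EtOH replicate 1 alone (adjusted p = 0.0382), which made the members called range from 1 to 2. Dppa5a was -0.0118 with upper quartile factors (adjusted p = 0.798), and between -0.0024 (without EtOH replicate 1) and 0.0598 with a library left out. Dppa4 ranged from -0.11 to -0.03 with a library left out. The causes were not tested. Same-numbered libraries did not deviate together (correlations of deviations between -0.023 and -0.016), so the numbers were not taken as pairs. With the replicate block, Dppa3 was at -1.11, Dppa2 at 0.17 (adjusted p = 0.074), Dppa4 at -0.07 and Dppa5a at 0.02, which changed no call of the 4 genes and gave 5082 called genes in all, against 5189. Over all settings between 3687 (DESeq2) and 5277 genes were called. The Dppa2 to Dppa4 log2 ratio differed between the groups by 0.16 to 0.30 with a library left out, and the Dppa3 share by -2.60 to -2.38 percentage points (-2.18 per kilobase). Of 224 recomputed list counts 216 were within 1.5 times of the reported ones, and the other 8 concerned primordial germ cell, germ line, primitive endoderm and fibroblast genes called higher. The 216 include counts that were 0 and stayed 0. Among these are all those of the 2-cell list, which had no tested gene and so could not move. The search for an E-box in promoters was not run, and the promoters are not analysed here. Counts of 120 to 407 limited the precision of Dppa2 and Dppa3 more than that of Dppa5a.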
